A study of Mus musculus with 18 samples.

Results

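The 39 genes described here are interferon-stimulated genes of the mouse: the RNA sensors, the antiviral effectors, the ISG15 conjugation enzymes and ubiquitin ligases, and the signalling factors that cells make in response to interferon. They were chosen by name, with earlier results of these data known. All 39 were among the 43346 genes of the expression table. Their RNA was measured in MC3T3-E1 subclone 4 cells, a pre-osteoblast line from the calvaria of C57BL/6 mice, at passage P9 per the labels. One arm received 2.5 µM EPZ6438, a small-molecule inhibitor of the H3K27 methyltransferase EZH2, for 3 days in osteogenic medium. The vehicle arm received 0.25% DMSO for the same 3 days, and the labels do not state whether the EPZ6438 arm also held DMSO. Each arm had 3 RNA libraries. The histone marks H3K27me3, which EZH2 writes and which accompanies silenced genes, and H3K4me3, which marks active and poised promoters, were mapped by chromatin immunoprecipitation in the same 2 arms. The labels name 2 samples per mark and arm, and a single merged list of peaks was at hand for each combination. Peak counts therefore have no replicate error. The line is a single subclone. No label says that the libraries of an arm came from separate cultures, and the p-values below cover the spread between libraries alone, which may be technical.

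Reads in genes numbered from 18807156 to 25365513 per library, so that 3 reads corresponded to 0.118 to 0.160 CPM (reads per 1000000). Genes were tested where at least 3 libraries had at least 10 reads, which held for 14213 genes and for 33 of the 39 interferon-stimulated genes. The 6 others, Zbp1, Mx1, Oasl1, Oas3, Rsad2 and Cmpk2, had at most 18 reads in any library. No tested member had fewer than 10 reads in all 3 EPZ6438 libraries, and only Mx2 and Oas1a had at least 1 library under 10 reads. Mx2, at 11, 18 and 24 reads in DMSO and 14, 7 and 6 in EPZ6438, met the filter through the DMSO arm. Oas1a, at 3, 15 and 20 reads in DMSO and 5, 10 and 7 in EPZ6438, met it only with DMSO libraries counted. Osteoblast identity was checked with 11 marker genes, all tested, whose summed level was 3436, 4691 and 6014 RPKM under DMSO and 5451, 7295 and 6160 RPKM under EPZ6438.

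Type I interferons bind a receptor at the cell surface whose Janus kinases phosphorylate STAT proteins. Phosphorylated STAT proteins join IRF9 to form the complex ISGF3, which binds a short repeat called the interferon-stimulated response element in the promoters of its target genes. Interferon gamma acts through a palindrome called the gamma-activated sequence, and IRF1 can bind the response element as well. Many of these genes keep a low level without added interferon, and the products include the sensors and transcription factors of the pathway itself.

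Promoters of members are shown because the response element is the sequence through which the pathway is known to act. RefSeq promoter windows, from 250 bases before to 50 bases after a gene's start on GRCm38.p6, were found for 29 of the 39 members. The response element core was searched on both strands as a pair of GAAA tetramers separated by 2 bases of any kind, which reads as a pair of TTTC tetramers on the opposite strand. It was present in 14 of the 29 members (48.3%) and in 3.99% of all 27025 gene symbols with a window. The extended form, the core followed by CT, was present in 8 members (27.6%) and in 0.303% of symbols. The gamma-activated sequence, searched as the palindrome TTCNNNGAA, was present in 8 members (27.6%) and in 9.55% of symbols. The genes with a core were Bst2, Ddx58, Eif2ak2, Gbp2, Gbp3, Gbp7, Ifih1, Ifit1, Ifit3, Isg15, Oas1a, Oas3, Rsad2 and Stat2. In 11 of them the core lay before the annotated start, at most 222 bases away, and in Ddx58, Eif2ak2 and Ifih1 it lay only after it. A match describes the letters of a window and does not show that a factor was bound there in these cells.

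Whole windows are printed for the 3 members with a core that had the lowest adjusted p for an RNA change, Ddx58, Gbp2 and Eif2ak2, and for Xaf1, the one member whose RNA rose. Each runs 5′ to 3′ along the gene's own strand, and capitals mark the response element core on either strand. The Ddx58 window is chr4:40239776-40240075 on the minus strand, the Gbp2 window chr3:142620413-142620712 on the plus strand, the Eif2ak2 window chr17:78882523-78882822 on the minus strand and the Xaf1 window chr11:72301379-72301678 on the plus strand.
Ddx58: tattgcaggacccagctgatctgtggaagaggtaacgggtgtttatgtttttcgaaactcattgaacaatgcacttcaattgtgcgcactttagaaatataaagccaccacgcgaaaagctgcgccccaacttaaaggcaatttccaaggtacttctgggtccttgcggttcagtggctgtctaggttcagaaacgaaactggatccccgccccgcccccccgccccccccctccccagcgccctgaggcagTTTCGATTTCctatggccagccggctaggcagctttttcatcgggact
Gbp2: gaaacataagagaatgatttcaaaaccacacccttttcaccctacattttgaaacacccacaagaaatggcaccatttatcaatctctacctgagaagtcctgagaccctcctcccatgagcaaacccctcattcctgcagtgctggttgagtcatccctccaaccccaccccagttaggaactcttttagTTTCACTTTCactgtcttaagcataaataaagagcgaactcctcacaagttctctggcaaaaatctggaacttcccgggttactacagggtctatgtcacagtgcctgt
Eif2ak2: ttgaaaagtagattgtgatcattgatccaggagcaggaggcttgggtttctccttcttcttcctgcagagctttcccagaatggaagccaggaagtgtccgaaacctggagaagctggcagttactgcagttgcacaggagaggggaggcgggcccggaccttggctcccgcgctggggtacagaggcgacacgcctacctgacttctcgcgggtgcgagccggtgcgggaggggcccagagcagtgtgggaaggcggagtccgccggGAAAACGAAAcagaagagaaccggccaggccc
Xaf1: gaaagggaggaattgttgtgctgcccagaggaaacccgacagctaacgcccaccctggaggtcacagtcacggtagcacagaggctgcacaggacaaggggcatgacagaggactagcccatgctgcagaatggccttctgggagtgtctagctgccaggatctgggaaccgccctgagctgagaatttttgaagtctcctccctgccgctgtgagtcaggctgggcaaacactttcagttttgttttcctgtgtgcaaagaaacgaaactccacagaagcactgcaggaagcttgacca
The core begins 59 bases before the RefSeq start in Gbp2, 2 bases after it in Ddx58 and 18 bases after it in Eif2ak2. The Xaf1 window holds no core.

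Shorter stretches, with 8 bases to each side of the core, show how alike the sites of other members are. Overlapping matches are printed as 1 run, and 6 members had more than 1 match.
Ifit1, from 104 bases before the start: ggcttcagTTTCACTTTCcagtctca
Ifit1, from 85 bases before the start: agtctcagTTTCAGTTTCtcactgct
Ifit3, from 156 bases before the start: gtggtaagTTTCACTTTCctcttctg
Ifit3, from 122 bases before the start: taagtctgTTTCAGTTTCtactttcc
Isg15, from 78 bases before the start: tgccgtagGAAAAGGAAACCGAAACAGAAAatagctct
Bst2, from 130 bases before the start: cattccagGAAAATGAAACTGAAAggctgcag
Gbp3, from 45 bases before the start: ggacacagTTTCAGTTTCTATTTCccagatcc
Oas1a, from 20 bases before the start: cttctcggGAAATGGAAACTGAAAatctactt
Read on whichever strand spells it, GAAACTGAAA was shared by 7 members (Bst2, Gbp3, Gbp7, Ifit1, Ifit3, Oas1a and Stat2) and stood in 0.231% of all 32851 windows. Ifit1 and Ifit3 each hold that core and GAAAGTGAAA, which Gbp2 also has and which stood in 0.253% of windows.

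Of the 33 tested interferon-stimulated genes 31 had a lower mean log2 level of RNA in the EPZ6438 arm, and 2, Xaf1 and Isg20, a higher one. RNA is given as RPKM, reads per kilobase of gene and per 1000000 reads in genes. A change is the EPZ6438 minus the DMSO mean of log2(RPKM + 0.1), tested with limma across all 14213 genes. On this scale the change of a gene with a low level is understated. Of the 33 tested members 11 fell at a limma adjusted p under 0.05 (33.3%), against 3.24% of all tested genes. A single member rose (3.03%), against 3.80% of all tested genes. The remaining 21 did not pass the test. The median change of the tested members was -0.76, against -0.03 over all tested genes, with a range from -1.83 in Oasl2 to 0.96 in Xaf1. In bulk RNA, fewer cells that express a gene and less RNA per cell cannot be told apart.

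All 3 EPZ6438 values lay below all 3 DMSO values in 25 tested members (75.8%), against 14.7% of all tested genes. They lay above in 1 member, Xaf1 (12.0% of all tested genes), and the arms overlapped in 7, namely Dhx58, Mx2, Oas1a, Isg20, Gbp3, Bst2 and Irf7. The median log2(RPKM + 0.1) of the tested members was 1.89, 1.96 and 1.77 under DMSO and 1.13, 1.04 and 0.97 under EPZ6438. The 2 arms thus did not overlap in the members' median, whereas the median over all tested genes lay between 2.89 and 2.95 in every library. Ddx58, Rtp4, Gbp2, Parp9, Parp14 and Xaf1 passed the test under each of the 14 alternative settings of the RNA analysis. The count of lower members was 5 without DMSO replicate 2, where 0.633% of all tested genes were lower, and 5 without EPZ6438 replicate 3 (0.929%). It was 6 without EPZ6438 replicate 2 (1.03%) and 17 with voom on the reads recovered from the RPKM values (3.73%).

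**Figure D1:**
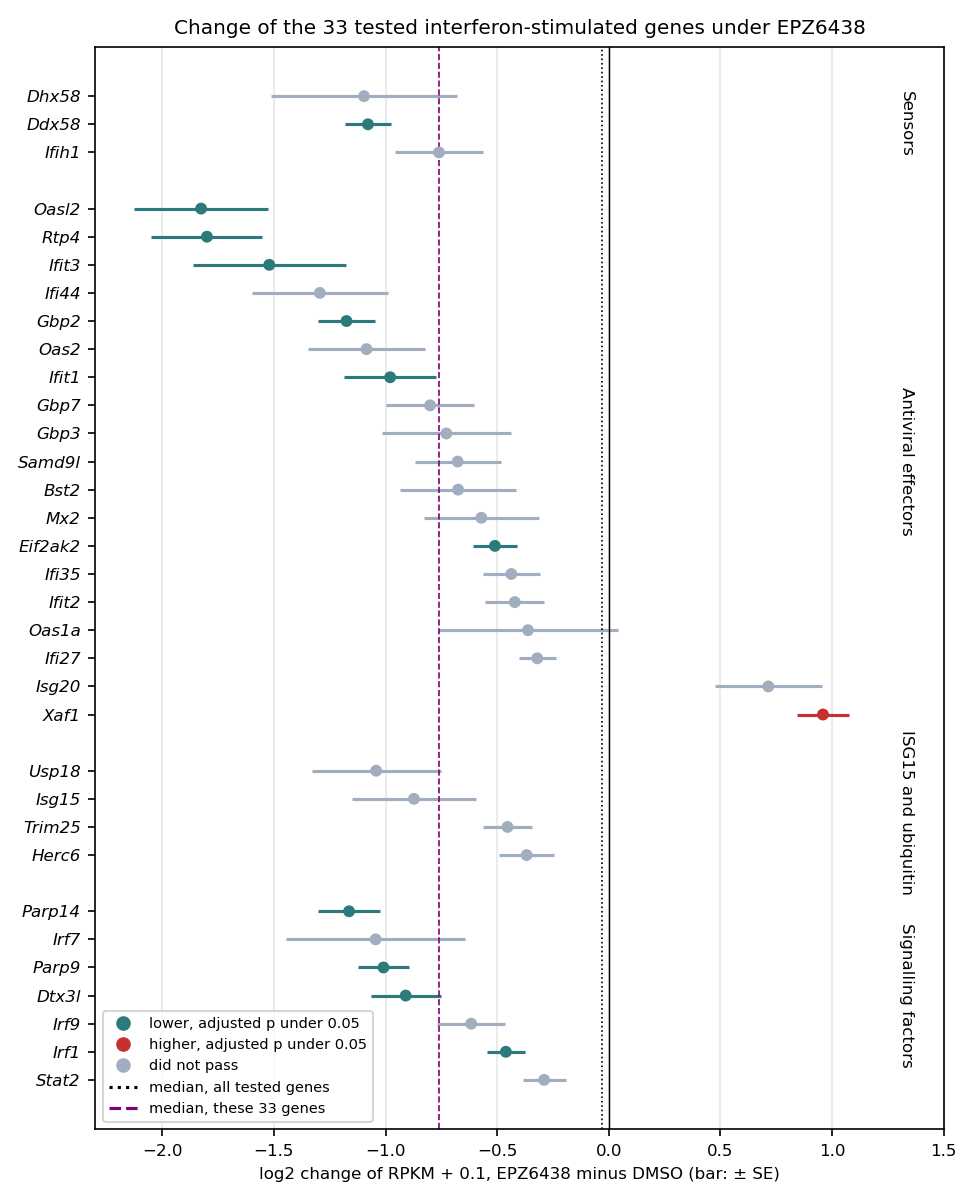
Log2 change of RPKM + 0.1 (EPZ6438 minus DMSO, horizontal axis) of the 33 tested members, grouped by role; points are limma estimates, bars are standard errors, and colour marks a limma adjusted p under 0.05. Vertical lines give the median of these genes (-0.76, dashed) and of all tested genes (-0.03, dotted). The points run from -1.83 for Oasl2 to 0.96 for Xaf1, and 31 of the 33 lie left of 0.

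**Figure D2:**
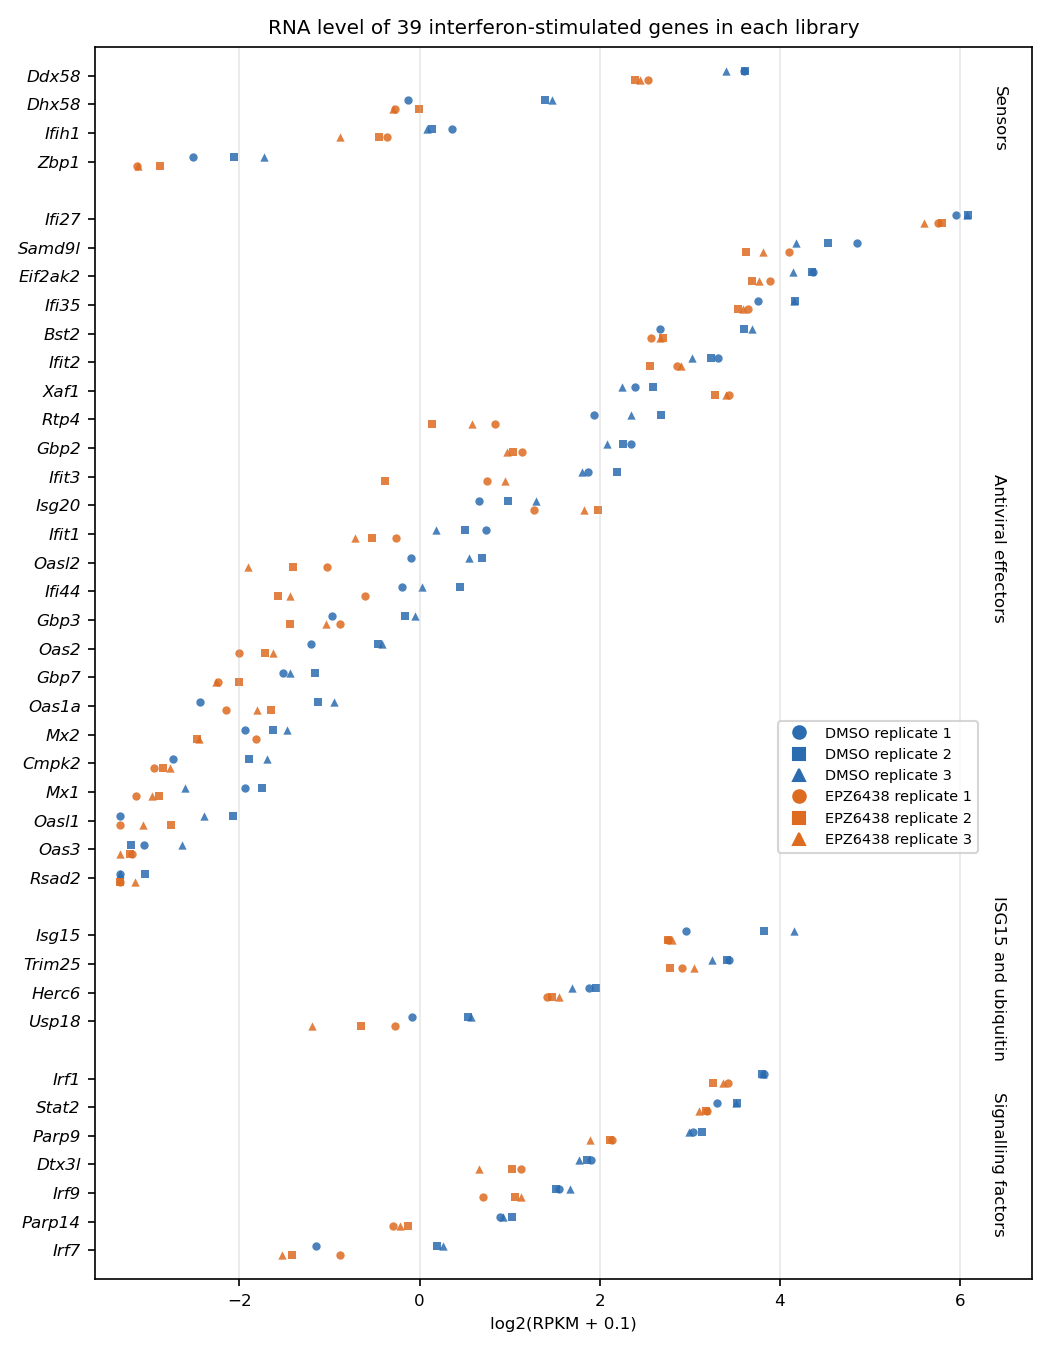
Level of each of the 39 members as log2(RPKM + 0.1) on the horizontal axis, with a point for each library (blue, DMSO; orange, EPZ6438; shapes give the replicate number), grouped by role and ordered by level. The orange points lie below the blue ones for the 11 members that fell and above them for Xaf1.

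The sensors detect viral nucleic acid in the cytoplasm. Ddx58 (RIG-I), Ifih1 (MDA5) and Dhx58 (LGP2) bind double-stranded RNA, and Zbp1 binds Z-form nucleic acid. Of the 3 tested sensors 1 fell, none rose, and their median change was -1.08. The role groups are small, and the shares of all tested genes, 3.24% lower and 3.80% higher, apply to each. Ddx58 (chr4:40203773-40239828, mm10) was at 12.0, 12.2 and 10.5 RPKM in DMSO and at 5.72, 5.16 and 5.33 RPKM in EPZ6438. The EPZ6438 mean was 46.8% of the DMSO mean, with no overlap between arms (log2 change -1.08, SE 0.10, limma adjusted p = 0.00178). Ifih1 was at 1.19, 1.00 and 0.956 RPKM in DMSO and at 0.681, 0.629 and 0.440 RPKM in EPZ6438, separate arms whose difference did not pass the test (-0.76, SE 0.20, adjusted p = 0.0673). Dhx58, which modulates signalling by the other two sensors, overlapped between arms, at 0.812, 2.52 and 2.66 RPKM in DMSO and 0.726, 0.899 and 0.717 RPKM in EPZ6438 (adjusted p = 0.189). The overlap came from DMSO replicate 1, which lay near the EPZ6438 libraries. The antisense gene Dhx58os, which covers 2637 bp of Dhx58, was at 1.60, 1.72 and 1.01 RPKM in DMSO and at 6.47, 5.53 and 5.42 RPKM in EPZ6438, and reads of the pair cannot be told apart where the strand setting is unknown. Zbp1 was not tested and had 5, 11 and 18 reads under DMSO and 1, 3 and 1 under EPZ6438.

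The antiviral effectors act on viral RNA, on translation or on virus particles. Of the 24 effectors 19 were tested: 6 fell (31.6%, against 3.24% of all tested genes), 1 rose (5.26%, against 3.80%) and 12 did not pass, with a median change of -0.68. The arms were separate and lower in EPZ6438 for 13 of them (68.4%, against 14.7% of all tested genes). Oasl2, an oligoadenylate synthetase-like protein (chr5:114896936-114912234), was at 0.836, 1.52 and 1.36 RPKM in DMSO and at 0.392, 0.278 and 0.167 RPKM in EPZ6438. The EPZ6438 mean was 22.5% of the DMSO mean (log2 change -1.83, SE 0.30, limma adjusted p = 0.0145). Its call was lost without DMSO replicate 2 (adjusted p = 0.0722), EPZ6438 replicate 2 (0.0557) or EPZ6438 replicate 3 (0.0531), and without the filter on low counts (0.0580). Its neighbour Oasl1, 11006 bp away, was not tested and had 0, 8 and 6 reads in DMSO and 0, 3 and 1 in EPZ6438.

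The oligoadenylate synthetases make the messenger that activates the endonuclease RNase L. Oas2 was at 0.334, 0.627 and 0.646 RPKM in DMSO and at 0.149, 0.205 and 0.224 RPKM in EPZ6438, with every EPZ6438 value below every DMSO value and an adjusted p of 0.0541. Its neighbour Oas3, 3245 bp away, had 2, 1 and 8 reads in DMSO and 1, 1 and 0 in EPZ6438 and was not tested. Oas1a overlapped between arms (-0.36, SE 0.40, adjusted p = 0.672). The Oas1 genes are near-identical copies whose reads the counting could have split.

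Among the Ifit proteins, Ifit1 binds viral RNA that lacks the host's cap methylation and blocks its translation. Ifit3 (chr19:34583531-34588731) was at 3.56, 4.48 and 3.39 RPKM in DMSO and at 1.58, 0.664 and 1.83 RPKM in EPZ6438. Every EPZ6438 value was below every DMSO value, and the mean was 35.6% of that in DMSO (-1.52, SE 0.34, limma adjusted p = 0.0439). Ifit1 (chr19:34640871-34650009) was at 1.56, 1.32 and 1.04 RPKM in DMSO and at 0.733, 0.592 and 0.508 RPKM in EPZ6438, again without overlap, at 46.8% of the DMSO mean (-0.98, SE 0.21, adjusted p = 0.0351). Both calls were near the threshold: Ifit1 lost it without any one of 5 libraries, all but DMSO replicate 3, and Ifit3 without any one of 5, all but EPZ6438 replicate 2. Both were also lost without the filter on low values (adjusted p = 0.127 and 0.107). With single libraries left out, the adjusted p of the lost calls lay between 0.0602 and 0.141 for Ifit1 and between 0.0606 and 0.172 for Ifit3. Ifit2, 7112 bp from Ifit3, was at 9.84, 9.33 and 8.05 RPKM in DMSO and at 7.16, 5.77 and 7.36 RPKM in EPZ6438, separate arms with an adjusted p of 0.120. Ifit3 has a near-identical copy, listed as I830012O16Rik, so reads of the pair could have been split. That copy fell as well, from 1.09, 1.53 and 0.985 RPKM to 0.404, 0.311 and 0.200 RPKM (-1.69, SE 0.25, adjusted p = 0.0101), a call lost without DMSO replicate 2 (adjusted p = 0.0526).

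Rtp4, a chaperone of chemosensory receptors that also binds viral RNA (chr16:23609919-23614222), was at 3.72, 6.32 and 4.98 RPKM in DMSO and at 1.69, 1.00 and 1.40 RPKM in EPZ6438. The arms were separate and the EPZ6438 mean was 27.2% of the DMSO mean (-1.80, SE 0.25, limma adjusted p = 0.00733). Gbp2, a guanylate-binding protein that attacks the vacuoles of intracellular pathogens (chr3:142620602-142638008), was at 4.99, 4.67 and 4.12 RPKM in DMSO and at 2.10, 1.96 and 1.87 RPKM in EPZ6438. Its replicates lay close together in each arm, and the EPZ6438 mean was 43.0% of the DMSO mean (-1.18, SE 0.13, adjusted p = 0.00278). Gbp3 and Gbp7, 9969 bp apart, did not pass the test, with adjusted p of 0.212 and 0.0588. Gbp7 was at 0.249, 0.348 and 0.270 RPKM in DMSO and at 0.111, 0.149 and 0.108 RPKM in EPZ6438, without overlap, while Gbp3 overlapped. Both lie inside the annotated span of Gbp5, so their reads are uncertain.

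Eif2ak2, the kinase PKR that stops translation when it binds double-stranded RNA (chr17:78852564-78882573), was at 20.6, 20.5 and 17.7 RPKM in DMSO and at 14.8, 12.8 and 13.5 RPKM in EPZ6438. This smaller difference, to 70.0% of the DMSO mean, left no overlap between arms (-0.51, SE 0.10, limma adjusted p = 0.0263). The call was lost without DMSO replicate 2 (adjusted p = 0.140) or without any EPZ6438 library (0.0581, 0.107 and 0.125). Ifi27, a mitochondrial protein, had the highest level of the effectors. It was at 61.9, 68.1 and 67.2 RPKM in DMSO and at 53.9, 55.5 and 48.5 RPKM in EPZ6438, separate arms with a difference that did not pass (-0.32, SE 0.08, adjusted p = 0.0683).

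Xaf1, a pro-apoptotic antagonist of the inhibitor XIAP (chr11:72301629-72313733), went the other way. It was at 5.14, 5.92 and 4.66 RPKM in DMSO and at 10.7, 9.59 and 10.4 RPKM in EPZ6438. Every EPZ6438 value was above every DMSO value, and the mean was 195% of that in DMSO (0.96, SE 0.12, limma adjusted p = 0.00456). Isg20, an exonuclease that degrades RNA, was the other tested member with a positive change. It was at 1.48, 1.87 and 2.35 RPKM in DMSO and at 2.31, 3.85 and 3.44 RPKM in EPZ6438, with EPZ6438 replicate 1 below DMSO replicate 3, and it did not pass (0.71, SE 0.24, adjusted p = 0.139).

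The other tested effectors did not pass. Ifi44, Ifi35 and Samd9l had separate arms, lower in EPZ6438, with changes of -1.29, -0.44 and -0.68 and adjusted p of 0.0501, 0.0970 and 0.0885. Bst2 (tetherin), which holds budding virions at the cell surface, overlapped (-0.68, adjusted p = 0.196), as did Mx2, a dynamin-like GTPase that the table lists as a polymorphic pseudogene (-0.57, adjusted p = 0.268). Mx1 had 11, 16 and 6 reads in DMSO and 1, 3 and 2 in EPZ6438 and was not tested. Rsad2 (viperin), which makes a chain-terminating nucleotide, had at most 2 reads in any library. Cmpk2, a mitochondrial nucleotide kinase 12752 bp from Rsad2, had 3, 12 and 17 reads in DMSO and 2, 3 and 3 in EPZ6438.

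ISG15 is a ubiquitin-like protein that is joined to other proteins, Usp18 removes it, and Herc6 and Trim25 are ligases. None of these 4 genes passed the test in either direction, and their median change was -0.66. The EPZ6438 values lay below the DMSO values in all 4, against 14.7% of all tested genes. Their unadjusted limma p was under 0.05 in 4 of 4, against 11.2% of all tested genes that were lower at that threshold, and voom on recovered reads called Trim25 lower (adjusted p = 0.0315). Isg15 had the highest mean over the 6 libraries in this group, although the mean of Trim25 was higher under EPZ6438. Isg15 was at 7.66, 14.03 and 17.8 RPKM in DMSO and at 6.65, 6.68 and 6.86 RPKM in EPZ6438. The EPZ6438 libraries were nearly equal while the DMSO libraries ranged widely (-0.87, SE 0.28, limma adjusted p = 0.124). Usp18 was at 0.841, 1.35 and 1.38 RPKM in DMSO and at 0.724, 0.538 and 0.338 RPKM in EPZ6438 (-1.04, SE 0.29, adjusted p = 0.0828). Herc6 and Trim25 changed by -0.37 and -0.45, with adjusted p of 0.143 and 0.0539.

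Of the 7 signalling factors 4 fell (57.1%, against 3.24% of all tested genes), none rose (against 3.80%), and the median change was -0.91. Parp9, Dtx3l and Parp14 lie side by side on chromosome 16. Parp9 and Dtx3l form an ADP-ribosyltransferase and ubiquitin ligase complex, and Parp14 is a mono-ADP-ribosyltransferase. Parp9 (chr16:35938470-35972605) was at 8.12, 8.72 and 7.86 RPKM in DMSO and at 4.31, 4.22 and 3.61 RPKM in EPZ6438, or 49.2% of the DMSO mean (-1.01, SE 0.11, limma adjusted p = 0.00317). Parp14 (chr16:35832874-35871544) was at 1.76, 1.94 and 1.80 RPKM in DMSO and at 0.715, 0.815 and 0.762 RPKM in EPZ6438, or 41.6% (-1.16, SE 0.14, adjusted p = 0.00380). Dtx3l (chr16:35926511-35939151) was at 3.65, 3.52 and 3.31 RPKM in DMSO and at 2.08, 1.93 and 1.47 RPKM in EPZ6438, or 52.4% (-0.91, SE 0.16, adjusted p = 0.0171). None of the 3 overlapped between arms, and replicates of an arm lay close together. Parp9 and Dtx3l share 682 bp, so some reads may belong to either, and the antisense gene Gm15564 covers 5854 bp of Parp9. The Dtx3l call was lost without DMSO replicate 2 (adjusted p = 0.0884), EPZ6438 replicate 2 (0.0560) or EPZ6438 replicate 3 (0.0595).

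Among the transcription factors, Irf1 (chr11:53770014-53778374) was at 14.1, 13.9 and 13.9 RPKM in DMSO and at 10.7, 9.48 and 10.2 RPKM in EPZ6438. The DMSO values were nearly equal and lay above every EPZ6438 value, whose mean was 72.5% of the DMSO mean (-0.46, SE 0.08, limma adjusted p = 0.0212). The call was lost without DMSO replicate 2 (adjusted p = 0.116) or without any EPZ6438 library (0.0594, 0.0921 and 0.107). Stat2 and Irf9, which are parts of ISGF3, did not pass, although their arms were separate and lower in EPZ6438. Irf9 was at 2.83, 2.77 and 3.08 RPKM in DMSO and at 1.53, 1.98 and 2.08 RPKM in EPZ6438 (-0.62, SE 0.15, adjusted p = 0.0581). Stat2 was at 9.79, 11.4 and 11.3 RPKM in DMSO and at 9.04, 8.93 and 8.51 RPKM in EPZ6438 (-0.29, SE 0.10, adjusted p = 0.139). Irf7, the factor that amplifies interferon production, was at 0.352, 1.04 and 1.10 RPKM in DMSO and at 0.440, 0.274 and 0.248 RPKM in EPZ6438. DMSO replicate 1 lay among the EPZ6438 libraries (-1.04, SE 0.40, adjusted p = 0.194).

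A single DMSO library set apart some members from others, a pattern singled out after the values were seen. In DMSO replicate 1, 10 tested members lay more than 0.5 (log2) below the mean of the other DMSO libraries, against 11.2% of all tested genes: Dhx58, Oasl2, Oas1a, Oas2, Rtp4, Gbp3, Bst2, Isg15, Usp18 and Irf7. Of these Dhx58, Oas1a, Isg15 and Irf7 lay more than 1 (log2) below, against 1.71% of all tested genes. In all, 22 tested members lay below that mean and 11 above it, among them Ddx58, Ifit1, Ifit2, Gbp2, Eif2ak2 and Irf1. The median difference was -0.13, against 0.05 over all tested genes, and DMSO replicate 1 was the lowest DMSO library for 18 of the 33 (54.5%), against 37.7% of all tested genes. Without DMSO replicate 1 the test called 16 members lower, where 3.26% of all tested genes were lower. Dhx58, Oas2, Bst2, Ifi35, Ifi27, Isg15 and Irf7 were gained and Ifit1 and Ifit3 lost. The change of Isg15 was then -1.22 (limma adjusted p = 0.00356), that of Bst2 -1.002 (0.00316), that of Dhx58 -1.62 (0.00455) and that of Irf7 -1.50 (0.0203). Each gained gene was lower in DMSO replicate 1 than in the mean of the other DMSO libraries. Leaving out a library singled out for such low values enlarges their change by construction, so these calls are no separate support for a fall. The same library had the lowest sum of osteoblast markers, 3436 RPKM, and the part of this difference in the pattern was not tested.

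**Figure D3:**
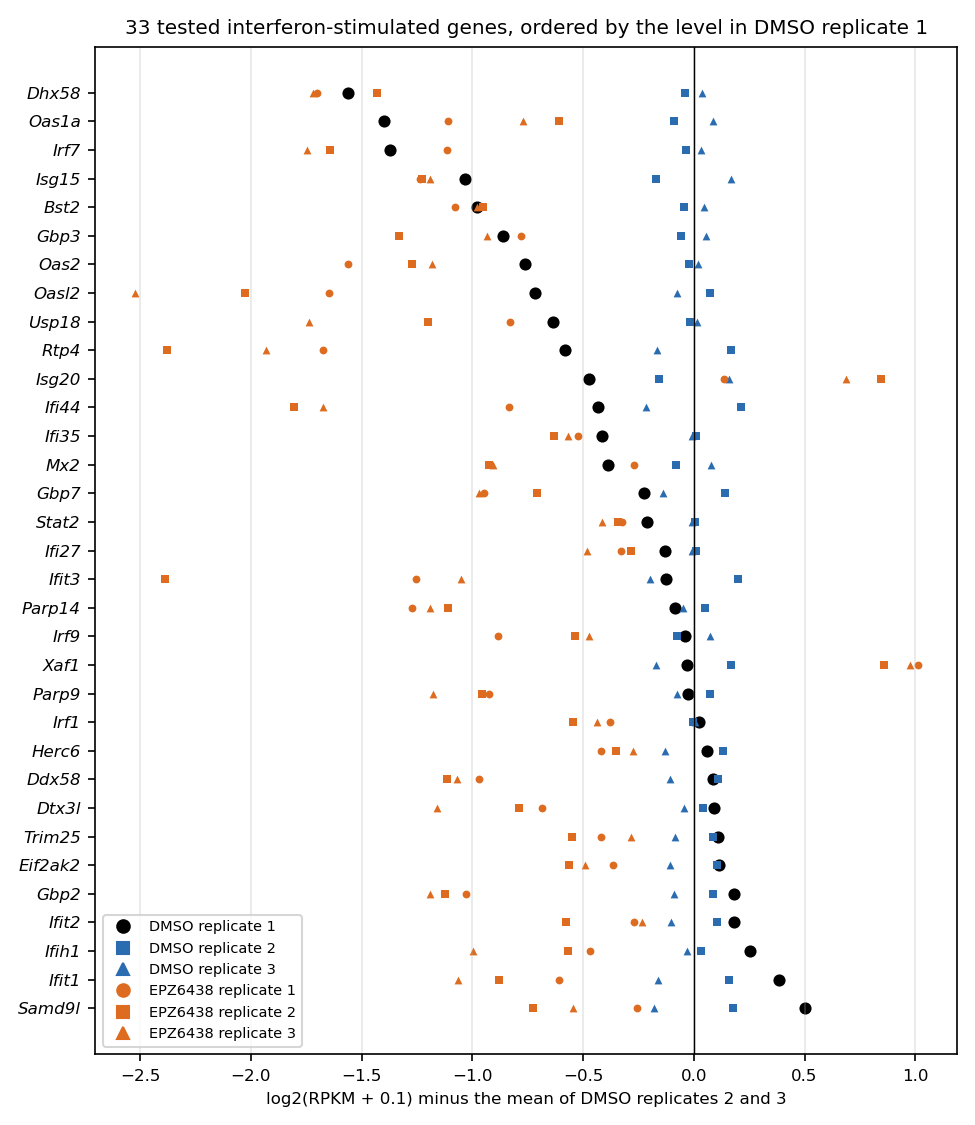
Log2(RPKM + 0.1) of the 33 tested members in each library minus the mean of DMSO replicates 2 and 3; black points are DMSO replicate 1, blue the other DMSO libraries and orange EPZ6438. In DMSO replicate 1, Dhx58, Oas1a, Irf7 and Isg15 lie more than 1 below 0, and 11 members lie above 0.

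The rest of the pathway was read from fixed lists of interferon genes. Over these lists 83 further genes were counted among those tested: 22 fell (26.5%, against 3.24% of all tested genes) and 3 rose (3.61%, against 3.80%). The median change was -0.31, against -0.03 over all tested genes. The same shares of all tested genes apply to each list below. Of the 14 interferon ligand genes, 11 had no read in any library and the others together had 11 reads over all 6 libraries, at most 3 in a library. Interferon RNA was thus near or below the limit of detection in both arms, and no change could be measured.

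Of the 10 tested receptors, Janus kinases and STATs counted here 2 rose, and the median change was -0.0045. Jak2, a kinase of the interferon gamma receptor, rose from 15.4, 12.9 and 12.0 RPKM to 22.04, 18.6 and 20.1 RPKM (0.59, SE 0.12, limma adjusted p = 0.0296). Ifnlr1, the interferon lambda receptor chain, rose from 0.0381, 0.0323 and 0.113 RPKM to 0.250, 0.475 and 0.322 RPKM (1.48, SE 0.28, adjusted p = 0.0257). Both had arms that did not overlap, and each call was lost with replicate 2 of either arm or EPZ6438 replicate 3 left out, without at least 1 further library and without the filter on low values (adjusted p up to 0.139 and 0.110). Ifnlr1 had 3, 3 and 12 reads in DMSO and 22, 48 and 27 in EPZ6438. It thus met the filter only through the EPZ6438 arm, where it was higher. Among the 11 tested negative regulators 1 fell and none rose (median -0.09). It was Samhd1, which depletes nucleotides, from 19.7, 19.0 and 18.5 RPKM to 14.3, 14.8 and 14.2 RPKM (-0.40, SE 0.07, adjusted p = 0.0238), a call that needed DMSO replicate 2 and every EPZ6438 library (adjusted p up to 0.133 without them). Among the 15 tested sensing adaptors and kinases 1 fell and none rose (median -0.15). Tmem173 (STING), the adaptor of the cytosolic DNA sensor, fell from 4.80, 4.38 and 4.01 RPKM to 2.33, 1.92 and 2.43 RPKM (-0.95, SE 0.14, adjusted p = 0.00925), and missed the threshold without DMSO replicate 2 alone (adjusted p = 0.0578).

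More of the other interferon-induced genes fell than rose. Of the 32 tested and counted here 14 fell and 1 rose, with a median of -0.51. Rnf213, a ubiquitin ligase, fell from 10.3, 11.7 and 10.9 RPKM to 6.66, 6.47 and 6.67 RPKM (-0.72, limma adjusted p = 0.00524). Trim30a, a member of the tripartite motif family, fell from 8.29, 7.74 and 6.81 RPKM to 4.26, 3.56 and 4.00 RPKM (-0.93, adjusted p = 0.00598). Tor3a, an ATPase, fell from 11.6, 11.6 and 11.6 RPKM to 7.58, 6.14 and 6.66 RPKM (-0.77, adjusted p = 0.00647). In all 3 genes the arms were separate. The gene that rose was Nlrc5, an activator of MHC class I genes, by 0.97 (adjusted p = 0.0316), a call lost with any single library left out and without the filter on low values (adjusted p up to 0.138). Of the p200 and Schlafen families, which include DNA sensors and growth regulators, 10 were tested and 2 fell, Mndal (-1.14, adjusted p = 0.0107) and Slfn2 (-1.19, adjusted p = 0.0362). Mndal missed the threshold without DMSO replicate 2 (adjusted p = 0.0652), and Slfn2 without the filter on low values or any library but EPZ6438 replicate 1 (up to 0.136). Of the 7 tested interferon-gamma GTPases, which act on pathogen vacuoles, 4 fell and none rose (median -0.83). They were Igtp (-1.17, adjusted p = 0.00373), Ifi47 (-0.99, adjusted p = 0.00494), Irgm2 (-0.83, adjusted p = 0.0117) and Iigp1 (-1.11, adjusted p = 0.0417). Igtp and Ifi47 passed under each alternative, whereas Irgm2 was lost with replicate 2 of either arm or EPZ6438 replicate 3 left out (adjusted p up to 0.0727) and Iigp1 without the filter on low values or any library but DMSO replicate 3 (up to 0.156). Annotated spans of Igtp and Irgm2 overlap, so their reads are uncertain.

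Markers of other cell types were checked beside these counts, since blood cells express many of the same genes. Any part of blood cells in the members' RNA was not tested. The 13 blood cell markers summed to 21.9, 19.8 and 18.8 RPKM in DMSO and to 22.5, 22.7 and 25.6 RPKM in EPZ6438. Of these markers 5 were tested and none passed (limma; 1, Lyz2, had an unadjusted p under 0.05, with the higher value in EPZ6438), Tyrobp, Cd3e, Itgax and Siglech had no read in any library, and Lyz2 made up most of the sum. The 8 endothelial markers summed to at most 0.128 RPKM, with Cdh5, Kdr and Emcn at 0 in every library. Among the 11 osteoblast markers 6 rose (Ibsp, Sp7, Alpl, Bglap, Bglap2 and Runx2) and 1 fell (Spp1), against 3.80% and 3.24% of all tested genes. The part of this difference in the members' RNA was not tested.

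The merged H3K27me3 peak list held 143399 peaks in DMSO and 20764 in EPZ6438. The H3K4me3 list held 40113 peaks of a median width of 212 bp in DMSO and 16216 of 401 bp in EPZ6438. The lists give starts and ends only, so a peak's height and the depth behind its absence from a list are not known here. A member was counted as marked where a peak reached within 2.5 kb of either gene end.

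In the DMSO list, 13 of the 39 members had an H3K27me3 peak, 9 of them tested (27.3% of the 33, against 19.3% of all tested genes). In the EPZ6438 list 2 members had one, both tested (6.06%, against 2.20%). These were Ifit1 and Oas2. The 11 members with a peak in the DMSO list alone were Bst2, Cmpk2, Gbp3, Irf7, Oas1a, Oas3, Oasl1, Oasl2, Parp14, Usp18 and Zbp1. No member had one in the EPZ6438 list alone, and 26 had none. Of the 9 tested members in the DMSO list, 77.8% were not in the EPZ6438 list, against 90.1% for all tested genes.

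The peaks lay near the start in several members. Oasl2 had an H3K27me3 peak in DMSO at chr5:114896066-114896384 (mm10), 552 bp before its start. Irf7 had one of 839 bp at chr7:141267587-141268425, 1106 bp from its start. Bst2 had one of 841 bp at chr8:71539615-71540455, 2178 bp away, and Cmpk2 one of 1792 bp at chr12:26467135-26468926, 278 bp away. For Ifit1 the lists placed the mark differently. The DMSO peak of 1781 bp at chr19:34638386-34640166 lay 705 bp from the start and outside the gene, as did a second of 263 bp at chr19:34651758-34652020 beyond the gene's end, whereas the EPZ6438 peak of 1330 bp at chr19:34643177-34644506 lay inside it. No DMSO peak lay inside the gene. In Oas2 the 185 bp EPZ6438 peak at chr5:120730154-120730338 lay within a DMSO peak at chr5:120730103-120730554.

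H3K4me3 peaks were near 19 members in the DMSO list, 17 of them tested (51.5% of the 33, against 56.7% of all tested genes). They were near 19 members in the EPZ6438 list, all tested (57.6%, against 68.4%). Peaks of both lists were near 14 members: Ddx58, Dtx3l, Eif2ak2, Herc6, Ifi35, Ifit2, Irf7, Isg15, Parp14, Parp9, Samd9l, Stat2, Trim25 and Usp18. Bst2, Oas2, Oas3, Oasl2 and Zbp1 had one in the DMSO list only, 3 of them tested (9.09%, against 4.45% of all tested genes), and each of these 5 also had an H3K27me3 peak there. Gbp2, Ifi27, Ifih1, Ifit1 and Irf1, all tested, had one in the EPZ6438 list only (15.2%, against 16.1% of all tested genes), and the RNA of 3 of these, Gbp2, Ifit1 and Irf1, fell. At Ddx58 a DMSO peak of 546 bp (chr4:40239748-40240293) and an EPZ6438 peak of 1509 bp (chr4:40238814-40240322) both covered the start and the response element core printed above. Further DMSO peaks of 189 and 224 bp also lay within the span of that EPZ6438 peak, so the widths alone do not show a wider mark. At Gbp2 the 737 bp EPZ6438 peak at chr3:142620015-142620751 covered its core, and no DMSO peak was listed within 2.5 kb. At Isg15 the listed peaks lay near the gene's end, not its start. Parp9 and Dtx3l share the 1393 bp EPZ6438 peak at chr16:35937982-35939374. No peak of either mark in any list was near Dhx58, Gbp7, Ifi44, Ifit3, Irf9, Isg20, Mx1, Mx2, Rsad2, Rtp4 or Xaf1. The share of all tested genes without any such peak was not determined.

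**Figure D4:**
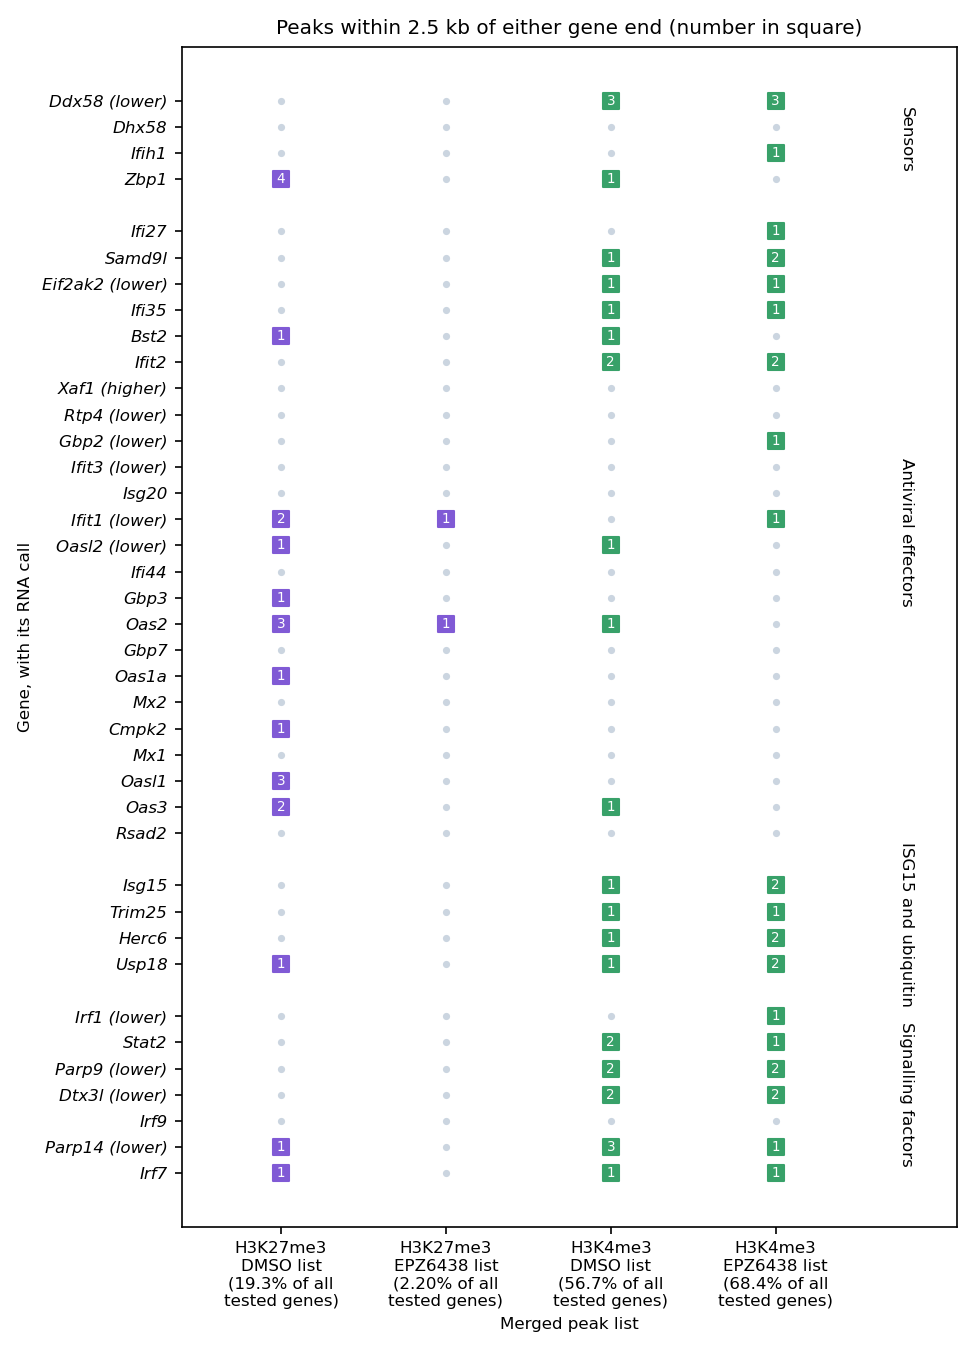
Peaks within 2.5 kb of either gene end for the 39 members (vertical axis, with the RNA call) in the 4 merged lists (horizontal axis); a square holds the number of peaks and a grey dot means none. H3K27me3 squares stand at 13 members in DMSO and 2 in EPZ6438, and H3K4me3 squares at 19 in each.

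**Figure D5:**
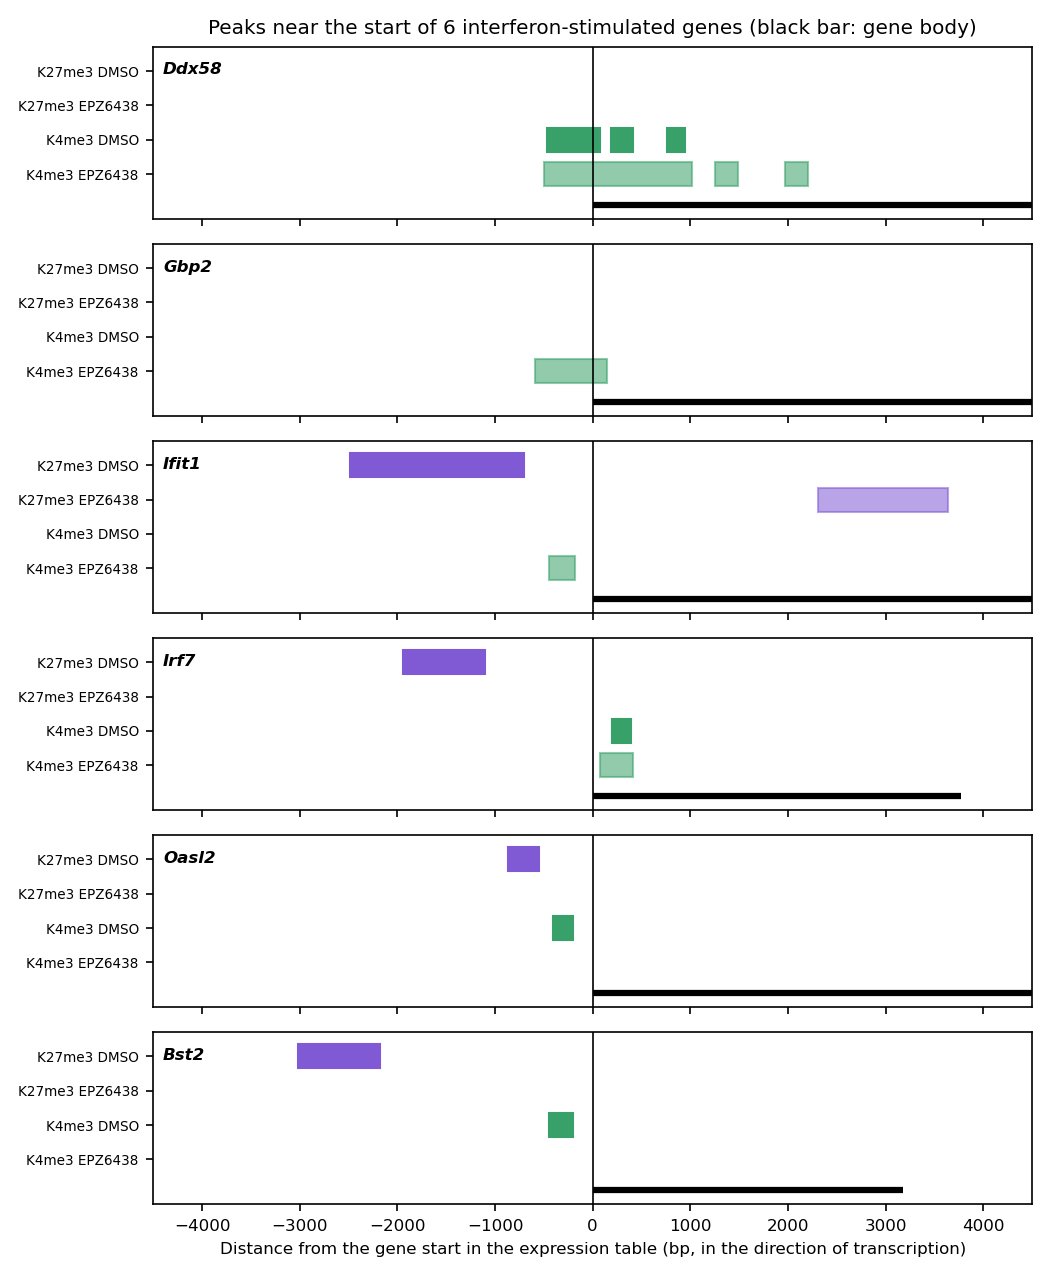
Peaks of the 4 lists (rows of each panel) around the start of Ddx58, Gbp2, Ifit1, Irf7, Oasl2 and Bst2, by distance from the annotated start in bp along the direction of transcription; the black bar is the gene, and only peaks that reach within 2.5 kb of a gene end are drawn. Oasl2 and Irf7 show an H3K27me3 peak in DMSO and none in EPZ6438, and the widest Ddx58 H3K4me3 peak measures 546 bp in DMSO and 1509 bp in EPZ6438. Further DMSO peaks of 189 and 224 bp lie within the span of the 1509 bp peak.

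Both marks were listed in DMSO near 8 members, namely Bst2, Irf7, Oas2, Oas3, Oasl2, Parp14, Usp18 and Zbp1, of which 6 were tested (18.2%, against 10.0% of all tested genes). In Oas3 the peaks of both marks lay near the gene's end, not its start. For Oas2, Parp14, Usp18 and Zbp1 it was not determined which gene end is the start. None of the 9 tested members with an H3K27me3 peak in the DMSO list rose, a number too small to set apart from the shares of all tested genes below. Of the 7 tested members with the peak in the DMSO list only, 2 fell (Oasl2 and Parp14) and none rose, with a median change of -1.04. Over all tested genes in that state, 2478 in number, 49 fell (1.98%) and 194 rose (7.83%). The 2 tested members with a peak in both lists were Ifit1, which fell, and Oas2, which did not pass. Over all 272 tested genes with a peak in both lists, 3.31% fell and 18.8% rose. Of the 24 tested members with no H3K27me3 peak in either list 8 fell and 1 rose, with a median change of -0.65. Over all tested genes without such a peak, 3.52% fell and 2.54% rose. The 11 members with the peak in DMSO only had a median DMSO level of 0.689 RPKM, against 4.80 RPKM for the 26 with none. Among tested members these medians were 1.19 and 5.12 RPKM.

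Presence of the response element core was set beside the RNA changes in the same way. Of the 12 tested members with a core 5 fell (Ddx58, Gbp2, Eif2ak2, Ifit1 and Ifit3) and none rose, with a median change of -0.78. Of the 13 tested members whose window held no core 3 fell and 1 rose, with a median of -0.46. The 8 tested members without a window had 3 falls and a median of -1.06. Over all tested genes 3.24% fell and 3.80% rose, and the shares among all genes with a core in their window were not determined. The numbers are small, and the difference between the groups was not tested.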

How the data were processed

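The RNA data are 6 libraries, 3 per arm, grouped and numbered as the labels have it. The authors deposited RPKM, per the file headers, for 43346 genes, and for each mark and arm 1 peak list whose other values are only starts and ends. The submitters' processing notes name STAR 2.6.1c and, with no version, Subread, MACS2, HOMER, Picard, DiffBind, FastQC and bcl2fastq, and the build mm10, but give no roles. For caller thresholds, annotation, strand setting and the merging of samples, details were not given in the sources used here.

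Reads were recovered from RPKM, gene length and each library's smallest step, and 100% of values above 0 came out whole (tolerance 0.001). Libraries of an arm differed by more than sampling noise, with a chi-square of 6.47 to 61.7 per gene. The 37 genes of chrMT, at 0 in every library, were left out. The test was limma 3.58.1 (trend, empirical Bayes, two-sided, no block) in R 4.3.3 on log2(RPKM + 0.1), for genes with at least 10 reads in at least 3 libraries, with Benjamini-Hochberg adjustment over all 14213 genes. The fit was tested on simulated data.

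A peak was counted where at least 1 bp lay in a window reaching 2.5 kb to each side of either gene end. Motifs were searched in RefSeq promoter windows with Python 3.11.15. The members, lists and role groups were chosen with earlier results of these data known. The results of 1 gene of the pathway lists are not reported here, and the lists were counted without it. Values are given for members that passed, the most abundant of each role group and their neighbours within 20 kb, and in the pathway lists for up to 4 passing genes by adjusted p. Further members with values, Dhx58os, Nlrc5 and the pattern of DMSO replicate 1 were chosen once their values had been seen. The alternatives were a mean of at least 1 CPM, no filter, pseudocounts of 0.01, 0.5 and 1 RPKM, a replicate block, scaling by the median of ratios, voom on recovered reads, leaving out each library, windows of 1 and 5 kb, whole genes, peaks of at least 400 bp, at least 50% of a peak in the window, and the longer motif.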

Additional observations from a re-analysis of the deposited data

How the results depend on the processing

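No tested member changed direction under any alternative. The count of lower members, 11, was 17 with voom and ranged from 5 to 16 with single libraries left out, and the count of higher members stayed at 1 in those fits. The median change of the tested members, -0.76, was -0.88, -0.57 and -0.45 with pseudocounts of 0.01, 0.5 and 1 RPKM, -0.92 with voom, and -0.69 to -0.88 with single libraries left out. A larger pseudocount shrinks the change of low genes by its construction. Of all tested genes, 273 were lower and 355 higher without the filter on low values, and 90 to 463 were lower and 227 to 515 higher with single libraries left out, against 461 and 540. The cause of the other shifts was not tested.

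The replicate numbers were not taken as pairs: deviations of same-numbered libraries from their arm means correlated across genes at 0.41, 0.0781 and 0.0561, and DMSO replicate 3 correlated best with EPZ6438 replicate 2 (0.331). With the replicate block, 13 members were lower and 2 higher, Isg20 being added, against 3.46% and 3.93% of all tested genes.

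With the 1 kb window, 8 members had an H3K27me3 peak in DMSO, 4 of them tested (12.1% of the 33, against 7.72% of all tested genes). In EPZ6438 the 1 kb count was 1, a tested member (3.03%, against 1.08%). Over whole genes the EPZ6438 count was 4, of which 3 were tested (9.09%, against 4.61%). It was 1 tested member with peaks of at least 400 bp (3.03%, against 1.20%) and 1 with at least 50% of a peak inside the window (3.03%, against 2.01%). With peaks of at least 400 bp, members with an H3K4me3 peak numbered 3 in DMSO and 10 in EPZ6438, all tested (9.09% and 30.3%, against 19.8% and 51.2% of all tested genes). The longer core was found in 8 members. Peak counts have no replicate check, and genes with few reads, such as the 6 untested members, could not be compared at this depth.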
